A study of Ictidomys tridecemlineatus with 15 samples.

Results

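The 40 genes described here are the gene rows of the count matrix whose level in neurogenic progenitors, in both the early-stage and the late-stage annotation, was highest relative to every other annotated cell type in the developing retina of a cone-rich rodent, the 13-lined ground squirrel (13LGS). UMI counts (unique molecular identifiers, one per captured mRNA molecule) were summed over all cells used of a type and divided by the type's total to give CPM (UMIs per 1000000). Cells of postnatal day 1 (6920 of 53394) were left out of these sums, and how they would change the list was not tested. The score of a row was log2 of the ratio between the lower of its early-stage and late-stage neurogenic CPM and its highest CPM in any of the other 10 types, each with 10 CPM added. The 40 rows were chosen by this score, as the highest of 34181 rows, of which 33569 had a count in the cells used. The rule therefore reads the levels themselves, so the levels of these rows in neurogenic progenitors against other types are given as a description with no test. The names of the genes are not paired with the rows in the files used, so genes are given by row number, counted from 1, and the annotation could not be checked against marker genes. A check that needs no names set 3000 cells aside and asked which type's average profile each resembled most. Of the 189 neurogenic progenitors among them, 88.9% lay nearest a neurogenic type, 10.1% nearest primary progenitors and 0.529% nearest photoreceptor precursors. Since the types were annotated from clusters of these same cells, the check describes how far their profiles separate and cannot test the type names.

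Retinal progenitor cells divide and can renew themselves, and they pass through a neurogenic state in which they leave the cycle and become committed to making neurons. In mammals this state is marked by proneural transcription factors, by Notch ligands, and by genes that end proliferation. Progenitors change with time in the types of neuron they make, and photoreceptor precursors, amacrine cells and ganglion cells are among the products of the neurogenic state.

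The study sequenced retinas of captive 13LGS by droplet-based 3′ single-cell RNA sequencing across the period of neurogenesis, with embryonic retinas from timed-pregnant dams and postnatal retinas from captive-bred litters. The labels name no genetic change or treatment, and the groups differ in age. The embryonic group held 7 libraries, 1 at embryonic day (E) 18 and 2 each at E21, E24 and E26. The postnatal group also held 7, with 2 libraries at postnatal day (P) 8, 2 at P12 and a single one at P4, at P17 and at P21, where the letters a and b only tell apart the libraries of one age. The sources do not say whether libraries of one age came from separate animals or litters, so the spread between them may be technical. The comparisons below used neurogenic progenitors (early-stage and late-stage annotations pooled), primary progenitors (likewise pooled) and photoreceptor precursors, each summed per library where a library held at least 10 cells.

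Neurogenic progenitors numbered 2875 of the 46474 cells, 1818 of them annotated early-stage and 1057 late-stage. Every library except P21 held them, from 124 to 486 cells per embryonic library and from 34 to 443 per postnatal library. Stage and annotation nearly coincide, since the late-stage annotation had at most 37 cells in any embryonic library (E26a) and the early-stage annotation at most 50 in any postnatal library (P4). Depth differed with stage. The neurogenic sums held 1211584 to 4215739 UMIs per embryonic library and 86617 to 729947 per postnatal library, so that 1 UMI in the smallest sum, that of the 34 cells of P8b, was worth 11.5 CPM. P8b also stood apart in makeup, with 669 photoreceptor precursors among 1369 cells. In 263 cases a cell barcode occurred in more than 1 library, which touched 45 neurogenic progenitors. Free RNA in droplets and cell pairs can add UMIs of one type to another, and 260 neurogenic progenitors (9.04%) had more than 2 times the median UMI count of their type in their library. Results without such cells are given where the count or its direction changed.

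The separation of these rows from other types was small. Scores ran from 1.16 in row 23319 to 0.0904 in row 11763, which with the added 10 CPM are ratios of 2.23 and 1.06. Only 1 row reached 2-fold and 7 reached 1.5-fold, while 28 lay under 1.2-fold. By a score of the same form, the primary progenitor pair had 2 rows at 2-fold or more, photoreceptor precursors 8, cones 64, amacrine cells 100, ganglion cells 157 and Müller glia 231. A pair was scored by the lower of its 2 annotations and any other type by its single level. Counts and scores of pairs and of single types are therefore not strictly alike. The row in 40th place scored 0.0904 for neurogenic progenitors, 0.379 for primary progenitors, 0.321 for precursors, and between 1.24 and 2.07 for the 7 remaining types. The border of the list was not marked by a gap. Rows 7081, 11250 and 11763 were the last taken, with scores of 0.0988, 0.0977 and 0.0904, and rows 8922, 7080 and 21943 the first left out, with 0.0885, 0.0839 and 0.0838.

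The type that came closest was usually a neighbour in differentiation. Photoreceptor precursors had the highest other level for 13 rows, late-stage primary progenitors for 12 and early-stage primary progenitors for 4, while ganglion cells had it for 4, bipolar cells and Müller glia for 2 each, and amacrine cells, cones and rods for 1 each. The rows spanned a wide range of abundance. The lower neurogenic level was under 10 CPM for 9 rows, from 10 to 100 CPM for 20 and at least 100 CPM for 11. For 5 rows fewer than 10 UMIs stood behind the late-stage level. Members also lay next to each other in the matrix, as rows 25859, 25862 and 25863 and rows 8840 and 8847 fell within 10 rows of one another. The order of the rows in the matrix is not explained in the sources used here.

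**Figure D1:**
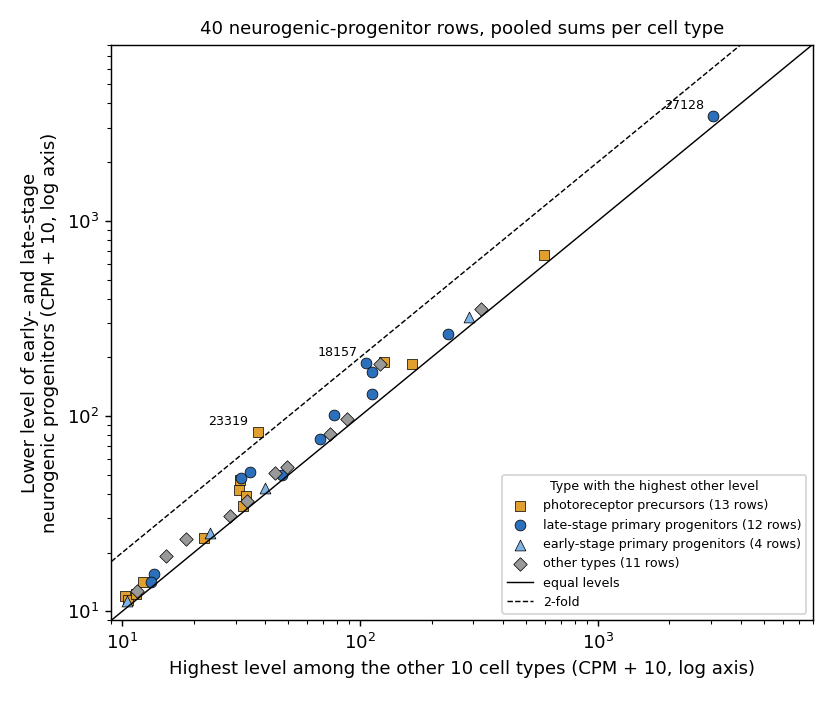
Each point is one of the 40 rows, with its highest level among the other 10 types on the x axis and the lower of its early-stage and late-stage neurogenic levels on the y axis (CPM + 10 of pooled sums, both axes logarithmic), coloured by the type that holds the highest other level. Only row 23319 lies above the dashed 2-fold line, and 28 rows lie within 1.2-fold of equality.

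Row 23319 had the highest score in the pooled sums. With the mean over libraries in place of pooled sums row 14353 came first, and 4 of the 10 highest rows stayed among the 10 highest. Without P12b row 18157 came first. The pooled level of row 23319 was 72.6 CPM in early-stage and 78.6 CPM in late-stage neurogenic progenitors. Photoreceptor precursors had 27.1 CPM, early-stage primary progenitors 11.8 CPM and late-stage ones 9.24 CPM. Amacrine cells had 4.07 CPM, ganglion cells 3.00 CPM and Müller glia 1.25 CPM. In neurogenic progenitors of single embryonic libraries row 23319 stood at 103 CPM in E18, 87.2 in E21a, 130.4 in E21b, 46.0 in E24a, 58.3 in E24b, 43.6 in E26a and 61.1 in E26b. After birth the level was 75.0 CPM in P4, 43.8 in P8a, 23.1 in P8b, 62.7 in P12a, 126 in P12b and 107 in P17. The stages overlapped over most of their range, and in all 12 libraries with both classes the neurogenic level was above the primary progenitor level. Primary progenitors ranged from 6.54 to 18.1 CPM before birth (median 15.6, 7 libraries) and, after it, held 7.58 CPM in P4, 6.56 in P8a, 20.9 in P8b, 5.06 in P12a and 17.4 in P12b.

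Row 18157 stood at 177 and 189 CPM in early-stage and late-stage neurogenic progenitors, and late-stage primary progenitors came closest with 96.1 CPM. Its neurogenic level was 249.8 CPM in E18, 207 in E21a, 168 in E21b, 135 in E24a, 170.0 in E24b, 146 in E26a and 189 in E26b. The postnatal values were 120.4 CPM in P4, 186 in P8a, 150.1 in P8b, 149 in P12a, 197 in P12b and 302 in P17. Primary progenitors had 38.1 CPM in E18 and 53.7 in E21a but 177 in P12a and 223 in P12b, and in both P12 libraries they were above the neurogenic progenitors.

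Row 8840 differed from the others in that cones, a product of the neurogenic state, had the highest other level. Cones had 111 CPM against 176 CPM in early-stage and 175 CPM in late-stage neurogenic progenitors, with 106 CPM in late-stage primary progenitors and 38.4 CPM in photoreceptor precursors. Over the embryonic libraries its neurogenic level was 122 CPM in E18, 208 in E21a, 180.2 in E21b, 199 in E24a, 226 in E24b, 149 in E26a and 267 in E26b. Postnatal neurogenic progenitors had 153 CPM in P4, 145 in P8a, 104 in P8b, 244 in P12a, 163 in P12b and 148 in P17. The neurogenic level exceeded that of precursors in all 11 libraries that held both.

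In the pooled sums row 14353 was the member whose annotations lay furthest apart on the early side. It had 66.2 CPM in early-stage and 38.2 CPM in late-stage neurogenic progenitors, a late to early ratio of 0.577. Late-stage primary progenitors followed with 21.7 CPM. The order was the reverse within E26a and P4, the only libraries with enough cells of both annotations to compare. E26a had 112.9 CPM in early-stage and 179.1 CPM in late-stage cells. P4 had 26.5 CPM, from 2 UMIs, in early-stage and 41.2 CPM in late-stage cells. The Poisson intervals overlapped in each library, so the pooled ratio does not show a higher level in early-stage cells of the same library. Embryonic neurogenic progenitors had 31.1 CPM in E18, 55.4 in E21a, 39.0 in E21b, 83.9 in E24a, 47.4 in E24b, 115 in E26a and 48.7 in E26b. The postnatal libraries scattered more, with 39.6 CPM in P4, 8.22 in P8a, 11.5 in P8b, 16.5 in P12a, 38.1 in P12b and 82.9 in P17. At E24 and E26 the a library was well above the b library, so the spread within an age was as wide as that between ages.

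Row 25859 had 159 and 169 CPM in early-stage and late-stage neurogenic progenitors, and 102 CPM in late-stage primary progenitors. By library the neurogenic level was 218 CPM in E18, 250.2 in E21a, 206 in E21b, 103 in E24a, 155 in E24b, 94.4 in E26a and 121 in E26b. It was 194 CPM in P4, 189 in P8a, 69.3 in P8b, 178 in P12a, 140.1 in P12b and 166 in P17. The E18 and E21 libraries were all above the E24 and E26 libraries, and the postnatal values lay between 69.3 and 194 CPM.

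Row 8252, the last of the 6 highest, had 52.4 CPM in early-stage and 37.1 CPM in late-stage neurogenic progenitors against 21.3 CPM in photoreceptor precursors. Its embryonic neurogenic levels were 67.3 CPM in E18, 60.4 in E21a, 98.5 in E21b, 34.2 in E24a, 44.9 in E24b, 36.3 in E26a and 35.5 in E26b. Its postnatal ones were 49.6 CPM in P4, 35.6 in P8a, 34.6 in P8b, 29.7 in P12a, 24.2 in P12b and 29.6 in P17. Neurogenic progenitors were above both primary progenitors (12 of 12 libraries) and precursors (11 of 11 libraries) throughout.

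**Figure D2:**
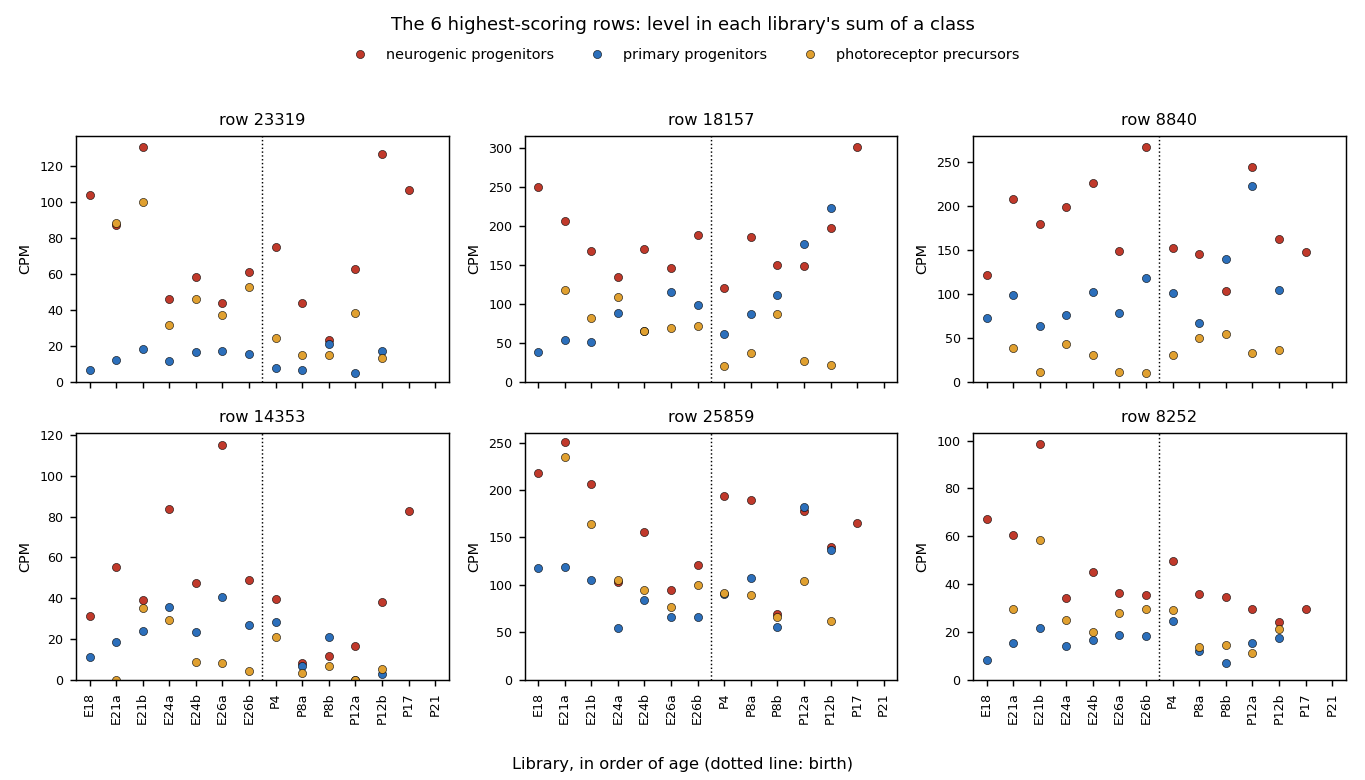
Level in CPM (y axis, linear and starting at 0) of the 6 highest-scoring rows in each library, in order of age (x axis), for neurogenic progenitors, primary progenitors and photoreceptor precursors, where each point is the sum of a class in one library. Neurogenic points of row 8252 lie above the other classes in every library, whereas primary progenitors overtake them in row 18157 at P12.

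Other members are named as the highest-scoring row for their closest type. Row 33297 (13.3 CPM early-stage, 27.4 CPM late-stage) was followed by Müller glia with 8.55 CPM, and row 8847 (9.15 and 20.01 CPM) by amacrine cells with 5.24 CPM. The latter had the highest late to early ratio of all members, 2.19. Bipolar cells were next for row 24398 (41.4 and 46.0 CPM, against 34.00 CPM), and ganglion cells for row 15384 (45.1 and 51.1 CPM, against 39.3 CPM). Early-stage primary progenitors came closest in row 24081 (313 and 312 CPM, against 279 CPM), and rods in row 19745 (20.9 and 28.2 CPM, against 18.5 CPM from only 150 rods). In 33 of the 40 rows the levels of the 2 neurogenic annotations were within 1.5-fold of each other, with 21 rows higher in the late and 19 in the early annotation.

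The order of the types was less stable by stage than in the pooled sums. When cells were summed by stage, neurogenic progenitors had the highest level for 32 of 40 rows among embryonic classes and for 39 of 40 among postnatal classes. Row 25863 was the widest exception before birth, with 667 CPM in neurogenic progenitors against 1076 CPM in photoreceptor precursors, while after birth it had 809 CPM against 292 CPM. Precursors were also highest before birth for rows 8188 (38.1 CPM against 32.9 CPM), 32796, 24919 and 7081, amacrine cells for rows 33297 and 2680, and ganglion cells for row 15384, all chosen for mention because they are the exceptions. Within single libraries the neurogenic level was above that of primary progenitors in every one of 12 libraries for 9 rows and in at least 10 of them for 31 rows. It was above that of precursors in each of 11 libraries for 8 rows.

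Only 2 libraries held at least 10 cells of both neurogenic annotations. In E26a, with 425 early-stage and 37 late-stage cells, 12 rows had 95% Poisson intervals that did not overlap, and all 12 were higher in the late-stage cells. By level alone, 27 members were higher in the late-stage and 13 in the early-stage cells. Of the 23 members with at least 100 UMIs in the 2 annotations together, 10 had separate intervals with the late-stage cells higher and 0 with the early-stage cells higher, where 5.64% and 4.05% of all 5039 such rows did. The late-stage cells of E26a are part of the level that the rule took, so nothing is read from this share. Row 27128 had 3233 CPM (95% interval 3178 to 3289) in early-stage and 6600 CPM (6196 to 7023) in late-stage cells, and row 18157 had 138.5 CPM (127 to 150.4) against 338 CPM (252 to 445). In P4, with 50 early-stage and 393 late-stage cells, 2 rows had separate intervals, each higher in the late-stage cells. Of the 11 members with at least 100 UMIs there, 2 had separate intervals with the late-stage cells higher and 0 with the early-stage cells higher. Among all 1102 such rows the shares were 3.72% and 2.99%. Nothing is read from this share either, since the rule also took the cells of P4. There row 27128 stood at 3579 CPM (3165 to 4033) against 4623 CPM (4456 to 4794), and row 25863 at 384.5 CPM (258 to 552) against 879.8 CPM (808 to 956). The annotation was made from the same cells, and the intervals cover counting error only, so no test is attached to these values.

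The 40 rows were also counted per cell, after each cell was thinned to 1000 UMIs so that depth was equal. Embryonic neurogenic progenitors held 4.41 ± 0.498 detected rows per cell (SD over 7 libraries, range 3.91 to 5.15) and postnatal ones 3.52 ± 0.569 (6 libraries, 2.65 to 4.44). Embryonic photoreceptor precursors held 2.87 to 4.36 rows per cell over 6 libraries and postnatal ones 1.54 to 2.69 over 5. The highest embryonic values, 4.11 and 4.36, came from only 18 precursors in E21a and 22 in E21b. The other embryonic libraries of precursors lay at 2.87 to 3.39, below every embryonic library of neurogenic progenitors. The value for primary progenitors was 1.90 to 2.37 before birth and 2.20 to 2.84 after it. In P8b the 3 classes did not separate, with 2.65 rows per cell in 34 neurogenic progenitors, 2.62 in primary progenitors and 2.56 in precursors. Postnatal amacrine cells, a differentiated type, held 0.832 to 1.90 rows per cell over 7 libraries. Ganglion cells, which are also differentiated, held 1.38 to 2.60 before birth, with 2.60 in E18 against 1.90 in the primary progenitors of that library, and 0.580 to 1.26 after it. Whether the values in these differentiated types come from shared expression or from free RNA was not tested. In ganglion cells they were higher before birth. Without thinning, the means for neurogenic progenitors were 14.2 before and 7.11 after birth. Thinning left out 6 embryonic and 12 postnatal neurogenic progenitors with fewer UMIs. For the row of highest score, 23319, a UMI was found in 7.30% to 14.6% of thinned cells in embryonic neurogenic libraries (median 7.85%) and in 3.75% to 8.24% in postnatal ones (median 5.07%), against 0% to 0.638% in postnatal amacrine cells. The range of embryonic photoreceptor precursors overlapped with that of neurogenic progenitors, at 2.90% to 16.7% (median 3.96%, 6 libraries). Its top rests on few cells, since E21a held only 18 precursors and E21b 22. Postnatal precursors were at 1.27% to 2.78%. The unthinned shares were 26.6% to 42.7% in embryonic and 5.88% to 41.9% in postnatal neurogenic progenitors, 11.6% to 50% in embryonic precursors, and 0.633% to 1.82% in postnatal amacrine cells.

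**Figure D3:**
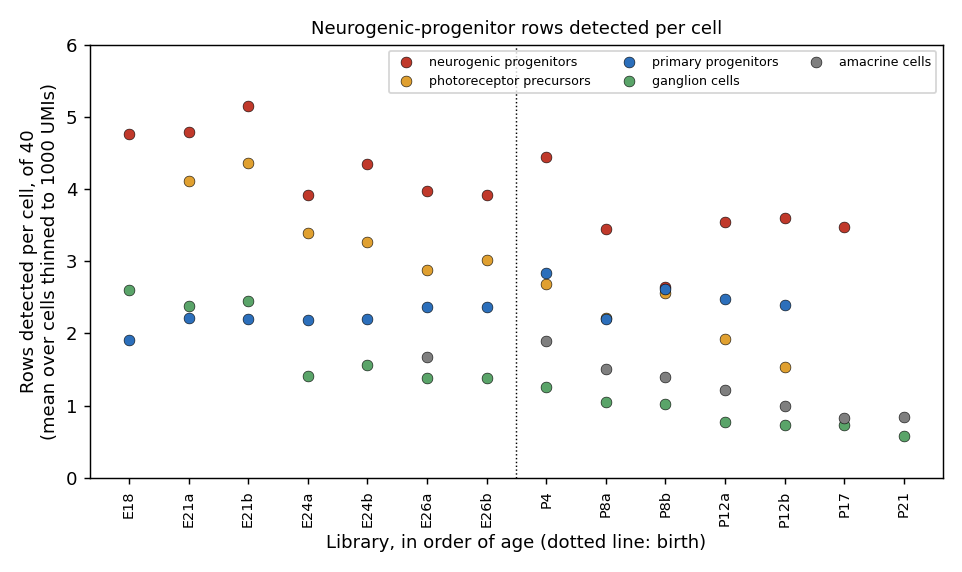
Mean number of the 40 rows detected per cell (y axis), in cells thinned to 1000 UMIs, for each library in order of age (x axis) and for 5 classes of cell. Neurogenic progenitors lie at 3.91 to 5.15 before and 2.65 to 4.44 after birth, with amacrine and ganglion cells lowest after birth. Embryonic photoreceptor precursors lie at 2.87 to 4.36, above 3.39 only in E21a and E21b, which held 18 and 22 of them.

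In photoreceptor precursors, cells that have left the neurogenic state towards rods or cones, 9 of these rows were lower after birth. UMI sums of 6 embryonic and 5 postnatal libraries were compared by edgeR's quasi-likelihood test with Benjamini-Hochberg adjustment over all rows tested, and a row was called at an adjusted p below 0.05. Of the 28 members that passed the filter on low counts, 9 fell and 0 rose (8 and 0 without cells of high UMI count). Over all 8571 rows tested, 24.7% were called, 11.3% lower and 13.4% higher. The median log2 change was −0.56 over the 28 members and 0.02 over all rows. Pooled precursors were weighted to the 1424 postnatal cells against 825 embryonic ones, so the rule limited the postnatal level more than the embryonic level, and nothing is read from the share of falls.

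Row 25863 had 1069 CPM in E21a, 1289 in E21b, 917 in E24a, 1084 in E24b, 1119 in E26a and 1192 in E26b in precursors. After birth it had 534 CPM in P4, 195 in P8a, 295 in P8b, 236 in P12a and 194 in P12b. The groups did not overlap, and P4 was the highest of the postnatal libraries. Its log2 level fell by 1.96 (SE 0.25, adjusted p = 2.96e-05 by edgeR). Row 8188 stood at 58.8 CPM in E21a, 87.9 in E21b, 35.2 in E24a, 30.7 in E24b, 30.3 in E26a and 40.9 in E26b, against 7.33 in P4, 5.66 in P8a, 16.6 in P8b, 0 in P12a and 2.67 in P12b. Here too every embryonic library was above every postnatal one, and the row fell by 2.29 (SE 0.42, adjusted p = 0.000908 by edgeR). The other 7 called rows, which included 23319 and 18157 of the 6 highest-scoring members, had log2 changes from −1.83 to −0.85. Row 18157 was at 87.2 CPM in P8b, above several embryonic libraries, and its change of −1.03 went to −1.67 without P8b. Its call was lost without E21a, E24a, P4, P8a, P12a or P12b (highest adjusted p = 0.0974 by edgeR), and that of row 9031 without E21b, E24a, P8a, P8b or P12a (0.0807).

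The same comparison in neurogenic progenitors used 7 embryonic and 6 postnatal libraries. Of 32 members tested, 4 rose and 2 fell, where 34.5% of all 9349 rows were called (16.5% higher, 18% lower). The rule read the early-stage and late-stage levels of these same cells and took the lower of them, so nothing is read from the share called. The balance of directions depended on the settings, with 3 rises and 3 falls under DESeq2 size factors, 3 and 4 under DESeq2 or without cells of high UMI count, and 3 and 6 with no filter on low counts. Calls over all rows also moved, from 378 to 4298 over all alternative settings, fits with a library left out included. Nothing particular to the members is therefore read from these counts. Row 32796 had 12.3 to 38.8 CPM before birth (median 30.2, 7 libraries) and 0 to 148 CPM after it (median 49.6, 6 libraries), with P17, P12b and P12a above every embryonic library and P8b at 0. It rose by 1.37 on the log2 scale (SE 0.43, adjusted p = 0.0198 by edgeR), and the call was lost without P12b or without P17 (highest adjusted p = 0.101). Row 8847 went from 5.69 to 16.5 CPM (median 9.11) to 9.91 to 41.4 CPM (median 18.4), and rose by 1.12 (SE 0.37, adjusted p = 0.0238 by edgeR). It too lost its call without P12b or P17 (highest adjusted p = 0.0942).

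The 2 rows that fell in neurogenic progenitors were 29869 and 11526. Row 29869 ranged from 88.7 to 194 CPM before birth (median 106) and from 11.5 to 109 CPM after it (median 67.9), with only P12b reaching into the embryonic range. Its log2 change was −0.79 (SE 0.26, adjusted p = 0.0253 by edgeR), and the call was lost without E18, P8a, P12a or P17 (highest adjusted p = 0.0563). Row 11526 ranged from 25.7 to 56.5 CPM (median 40.8) and from 5.92 to 28.3 CPM (median 23.9). It had a log2 change of −0.63 (SE 0.24, adjusted p = 0.0456 by edgeR) and lost its call when any of 11 of the 13 libraries was left out. Row 31833, which rose, lost its call with any of 10 libraries left out. The call that held in every such fit was that of row 33297, which rose by 1.03 (SE 0.30, adjusted p = 0.0124 by edgeR, highest adjusted p = 0.0467 with a library left out) and was named for that reason. Row 33297 had 9.08 to 23.0 CPM before birth (median 12.4) and 0 to 36.3 CPM after it (median 28.5), with P8b at 0.

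In primary progenitors, the class from which neurogenic progenitors come, 7 embryonic and 5 postnatal libraries were compared. Of 34 members tested, 4 rose and 2 fell, where 32.7% of all 14757 rows were called (13.1% higher, 19.6% lower). Primary progenitor levels entered the rule as well, so nothing is read from this share. Row 27128, the most abundant member, ranged from 294 CPM in E18 to 1943 CPM in E26b before birth (median 1575). It stood after birth at 2853 CPM in P4, 2297 in P8a, 2693 in P8b, 5780.2 in P12a and 4365 in P12b. All postnatal libraries were above all embryonic ones, and the log2 level rose by 1.43 (SE 0.37, adjusted p = 0.00975 by edgeR). Row 26966 rose by 2.79 (SE 0.64, adjusted p = 0.00459 by edgeR) from 0.241 to 1.38 CPM (median 0.463) to 2.65 in P4, 3.28 in P8a, 0 in P8b, 10.1 in P12a and 8.71 CPM in P12b, which rests on 47 embryonic and 15 postnatal UMIs.

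Row 29869 fell in primary progenitors as well. It had 32.7 to 61.3 CPM before birth (median 55.9) and 33.0 in P4, 9.84 in P8a, 41.9 in P8b, 5.06 in P12a and 14.5 CPM in P12b after it, so that P4 and P8b lay within the embryonic range. Its log2 change was −1.29 (SE 0.32, adjusted p = 0.00707 by edgeR). Row 25863 had 254 to 459.7 CPM before birth (median 304) and 247 in P4, 78.7 in P8a, 244 in P8b, 131 in P12a and 142 CPM in P12b, all below the lowest embryonic library. Its log2 change was −0.99 (SE 0.24, adjusted p = 0.0065 by edgeR). Of the 6 calls in primary progenitors, that of row 24513 was lost without P4 (adjusted p = 0.0798 by edgeR), and 5 held with each library left out.

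**Figure D4:**
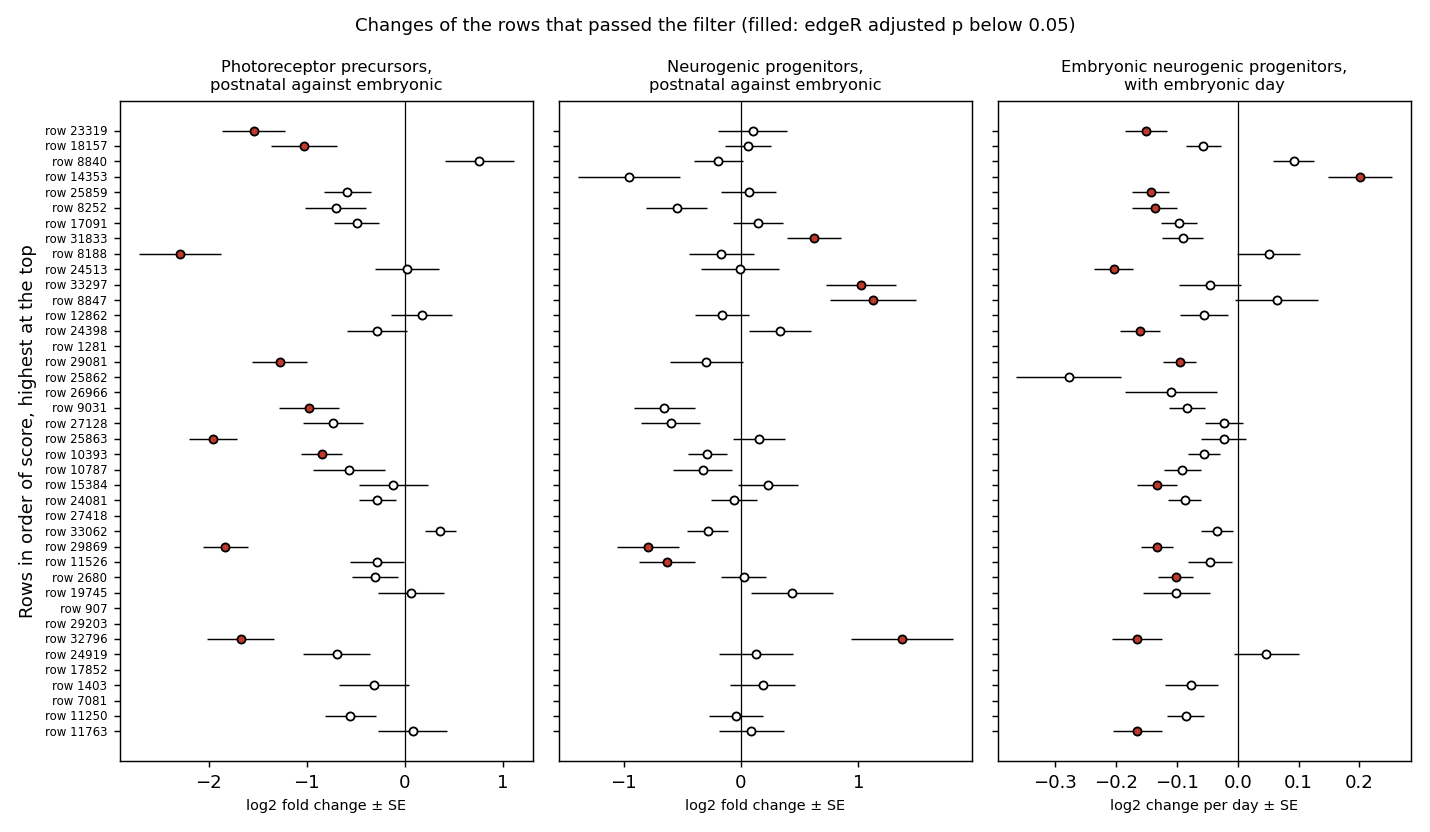
Log2 change ± SE (x axes) of each member that passed the filter, with the rows in order of score from the top (y axis), for photoreceptor precursors and neurogenic progenitors between stages and for embryonic neurogenic progenitors per day. Filled points have an edgeR adjusted p below 0.05, and they lie to the left of 0 for all 9 called rows in precursors and for 11 of the 12 called rows with embryonic day.

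Whether the change with stage differed between neurogenic and primary progenitors was tested in the 12 libraries that held both, with the library as a block, by the interaction of class and stage. Of 33 members tested, 4 had a difference, where 2.85% of all 11834 rows did (1.45% higher and 1.39% lower in neurogenic progenitors). Levels of both classes in these libraries entered the rule, so nothing is read from this share. Row 27128 fell relative to primary progenitors by 2.15 on the log2 scale (SE 0.42, adjusted p = 0.00569 by edgeR). Its neurogenic level was 3353 to 5264 CPM before birth (median 4375) and 4511 in P4, 3651 in P8a, 3002 in P8b, 3063 in P12a, 1597 in P12b and 1095 CPM in P17, so the order of the classes turned over with age. In E18 neurogenic progenitors had 4613 CPM against 294 CPM in primary progenitors, and in P12b 1597 CPM against 4365 CPM. This call held with each library left out in turn (highest adjusted p = 0.0335).

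Row 25863 went the other way, by 1.14 (SE 0.24, adjusted p = 0.00831 by edgeR), since it stayed between 358 and 1024 CPM in neurogenic progenitors at all ages while it fell in primary progenitors. Leaving out P8a or P12b ended that call (highest adjusted p = 0.0762). Row 32796 had a difference of 1.37 (SE 0.37, adjusted p = 0.0467 by edgeR), with 14.9 to 24.8 CPM in embryonic primary progenitors and 11.4 in P4, 6.56 in P8a, 0 in P8b, 5.06 in P12a and 26.1 CPM in P12b. Row 26966 had a difference of −3.01 (SE 0.82, adjusted p = 0.0469 by edgeR), with a neurogenic level of 1.07 to 9.04 CPM before and 1.42 to 23.1 CPM after birth. The calls of rows 32796 and 26966 were lost with any of 6 and 8 libraries left out (highest adjusted p = 0.195 and 0.156) and without cells of high UMI count (adjusted p = 0.157 and 0.0907). Without those cells 7 members were called in place of 4 (1 higher, 6 lower), and the share of all rows called went from 2.85% to 5.09%.

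**Figure D5:**
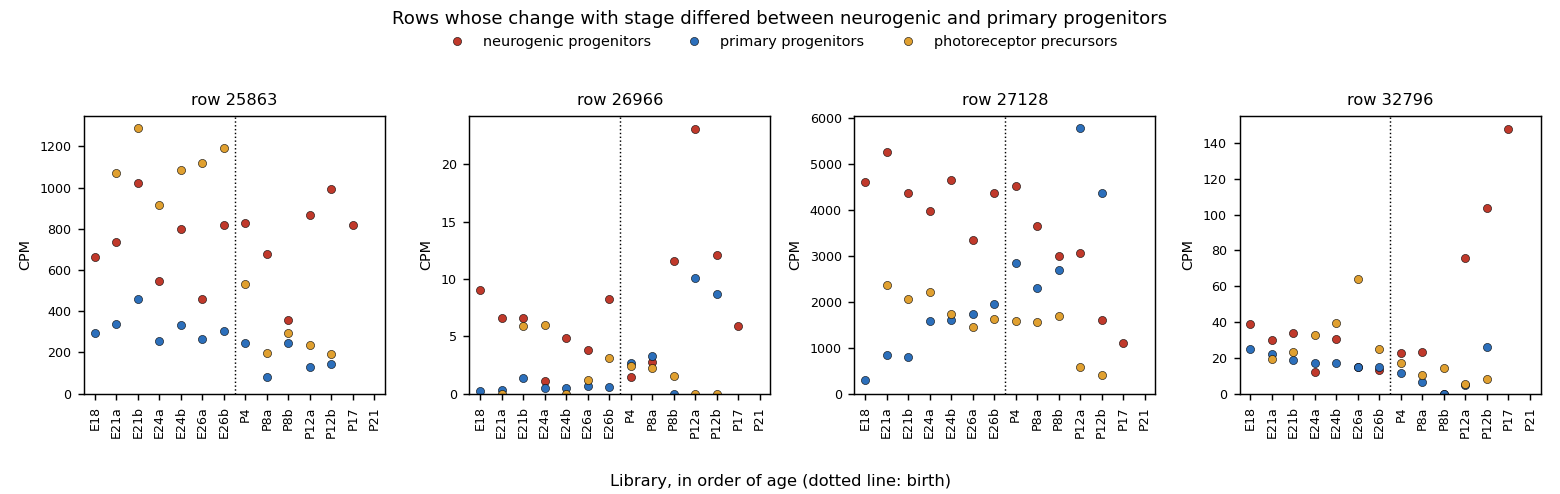
Level in CPM (y axes, linear from 0, a separate scale for each row) of the 4 rows whose change with stage differed between neurogenic and primary progenitors, in each library in order of age (x axis). Row 27128 is higher in neurogenic than in primary progenitors in all 7 embryonic libraries and lower in P12a and P12b, while row 25863 stays at 358 to 1024 CPM in neurogenic progenitors and is lower after birth in the other classes.

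Within the embryonic period, nearly all members called with age in neurogenic progenitors were lower at later days when all cells were used. Embryonic day was fitted as a continuous term over 7 libraries by edgeR. Of 34 members tested, 11 fell and 1 rose with age, where 7.75% of all 11194 rows were called (2.78% lower, 4.97% higher). The fitted slope was below 0 for 29 of the 34 members, and its median was −0.09 log2 per day over the members and 0.00 over all rows. Without cells of high UMI count, 5 members were called, of which 3 fell and 2 rose, where 5.15% of all rows were called. The count and its balance of directions thus depended on those cells. Neurogenic levels in these libraries entered the rule, and photoreceptor precursors had 0 cells in E18, so nothing is read from the share of falls. Over this period the late-stage annotation made up 2 of 486 cells in E18 and 37 of 462 in E26a, and its part in the slopes was not tested.

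Row 24513 had 187 CPM in E18, 125 in E21a, 100.3 in E21b, 61.5 in E24a, 71.7 in E24b, 64.8 in E26a and 42.1 in E26b. Its slope was −0.20 log2 per day (SE 0.032, adjusted p = 0.00125 by edgeR), and the call was lost without E18 (adjusted p = 0.0815). Row 32796 had 38.8 CPM in E18, 30.2 in E21a, 33.6 in E21b, 12.3 in E24a, 30.4 in E24b, 14.9 in E26a and 13.2 in E26b. It had a slope of −0.17 per day (SE 0.041, adjusted p = 0.0206 by edgeR), which was not called without E18, E26a or E26b (highest adjusted p = 0.159). Row 14353, with the values given above, rose by 0.20 log2 per day (SE 0.052, adjusted p = 0.0274 by edgeR), and lost its call without E18, E21b or E26a (highest adjusted p = 0.205). The calls of rows 23319, 24398 and 25859 held with each library left out, with slopes of −0.15, −0.16 and −0.14 per day and a highest adjusted p of 0.0432 among the 3 by edgeR. Among the others that fell, the calls of rows 29869 and 11763 were lost without E18 and without E26a, that of row 15384 without either, and those of rows 8252, 29081 and 2680 without any of 5, 5 and 7 libraries. In rows 23319, 24398 and 25859 the means of E18 and E21 were apart from those of E24 and E26. Row 23319 had means of 103.5 CPM at E18, 108.8 at E21, 52.1 at E24 and 52.4 at E26, and row 24398 had 56.2, 62.2, 32.2 and 25.4 CPM at the same ages.

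The same fit in primary progenitors of those 7 libraries, added after the data were seen, had 10 members that rose and 5 that fell among 33 tested, where 13.8% of all 15918 rows were called (7.11% higher, 6.71% lower). Both fits use the same libraries, and primary progenitor levels entered the rule, so nothing is read from the share called. Row 8188 rose in primary progenitors from 1.58 CPM in E18 to 3.30 in E21a, 6.28 in E21b, 7.92 in E24a, 13.4 in E24b, 8.15 in E26a and 13.3 in E26b. Its slope was 0.34 log2 per day (SE 0.062, adjusted p = 0.00482 by edgeR), and its call was lost without E18 (adjusted p = 0.0948). Row 27128 rose by 0.33 per day (SE 0.035, adjusted p = 0.000283 by edgeR), from 294 CPM in E18 through 848 and 806 at E21 and 1575 and 1608 at E24 to 1726 and 1943 at E26. Of the 15 calls, 4 held with each library left out, among them that of row 27128. Rows 11763 and 25859 had the steepest declines, each with a slope of −0.12 per day (adjusted p = 0.0143 and 0.00734 by edgeR), the former called only with E18 included.

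After birth, 1 of 31 members tested changed with postnatal day in neurogenic progenitors of 6 libraries, where 2.62% of all 6790 rows were called (1.21% higher, 1.41% lower). Row 32796 had 22.7 CPM in P4, 23.3 in P8a, 0 in P8b, 75.9 in P12a, 104 in P12b and 148 in P17. It rose by 0.25 log2 per day (SE 0.055, adjusted p = 0.0107 by edgeR), a call that held with each library left out (highest adjusted p = 0.0314). By these calls row 32796 fell with age before birth and rose after it. The embryonic call was lost without E18, E26a or E26b, and at equal depth no member was called with postnatal age. Over all 7 fits, 35 of the 40 members passed the filter on low counts at least once, and 24 of these (68.6%) were called at least once. Of all 16103 rows that passed it at least once, 49.1% were called at least once. Rows differ in how many fits they passed, so the next shares are over rows tested in all 7. Of the 27 members tested in all 7 fits, 19 were called in at least 1 (70.4%), and so were 63.2% of the 6423 rows tested in all 7, so nothing particular to the members is read from the count.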

How the data were processed

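Whole 13LGS retinas were profiled with 10x Chromium 3′ v3.1 chemistry. The authors ran Cell Ranger 3.1.0 against the HiC_Itri_2 assembly and annotated clusters in Seurat 4.0.4, per the labels and the published methods. The authors deposited UMI counts per gene row and cell as whole numbers without normalization, with a table of each cell's name, age and type. The sources used here do not give filters on cells or doublet removal.

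Of 53394 cells, 46474 from 14 libraries at 9 ages were used. P1 (6920 cells) is not analysed here, because its 2 library suffixes could not be tied to its 1 labelled sample. All cells of the other libraries were kept, and no doublet caller was run.

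The members, the classes compared and the tests were chosen with earlier results of these data known. Levels are CPM of class sums without further scaling. Sums per library with at least 10 cells were filtered with filterByExpr, scaled by TMM and fitted with glmQLFit and glmQLFTest in edgeR 4.0.16 (R 4.3.3). Adjusted p-values (Benjamini-Hochberg) are over all rows tested, with a threshold of 0.05, and the SE is the absolute log2 change over the square root of F. Named rows are the 6 of highest score, the 2 largest called rises and falls in each fit, the best row for each closest type, and the rows at the border of the list. Other rows are named where the text says why. Alternatives were DESeq2 1.42.0, its size factors, no filter, equal depth, at least 30 cells, no cells of high UMI count, and leaving out each library. The scripts were tested on simulated data. Intervals are exact Poisson and cover counting error only.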

Additional observations from a re-analysis of the deposited data

Results flagged for a closer look

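In 9 of 126 groups of libraries, a single library stood apart from the others of its class and stage by Dixon's criterion, which chance alone would give in about 1 in 20 groups. Among neurogenic progenitors, row 11526 was at 5.92 CPM in P17 against 23.1 to 28.3 CPM in the other postnatal libraries, row 24398 at 88.8 CPM in P17 against 34.2 to 52.4 CPM, and row 19745 at 44.5 CPM in E21b against 11.6 to 24.3 CPM in the other embryonic ones. In primary progenitors E21b stood apart for row 25863 (459.7 CPM against 254 to 339.6 CPM) and row 26966 (1.38 CPM against 0.241 to 0.657 CPM). In photoreceptor precursors row 18157 was at 87.2 CPM in P8b, row 8252 at 58.6 CPM in E21b, row 11763 at 43.9 CPM in P12a and row 19745 at 34.2 CPM in P4. E21b, the library of highest median UMI count, held 4 of the 9 values.

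By the interaction test in edgeR, a difference in the change with stage between neurogenic and primary progenitors was called in 4 members. These were rows 25863 (log2 difference 1.14, adjusted p = 0.00831), 26966 (−3.01, adjusted p = 0.0469), 27128 (−2.15, adjusted p = 0.00569) and 32796 (1.37, adjusted p = 0.0467). Over all 11834 rows 2.85% were called. Only the call of row 27128 held with each library left out. Levels of both classes entered the rule, so nothing is read from the number of calls.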

How the results depend on the processing

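No paired analysis was possible because the library suffixes do not carry the replicate numbers of the labels, apart from the comparison of 2 classes within a library, which had the library as a block. Thinned to equal depth, where only 10 to 12 members passed the filter, the members called numbered 0 for stage in neurogenic progenitors (6 as reported), 3 in primary progenitors (6), 4 in precursors (9), 2 for the difference between classes (4) and 0 for postnatal age (1), by edgeR. At an unadjusted p below 0.05 the 2 counts of 0 became 0 and 1, and DESeq2 on the full counts called 7 for stage and 2 for postnatal age. The difference between classes had 7 calls with no filter on low counts and 7 without cells of high UMI count, which also left 5 of the 12 calls with embryonic age. With a library left out, the calls ranged from 2 to 7 for stage in neurogenic progenitors, 5 to 10 in primary progenitors, 7 to 9 in precursors, 1 to 4 for the difference between classes, 5 to 10 for embryonic age and 1 to 2 for postnatal age. Over all rows, calls ranged over these settings from 378 to 4298, 525 to 5075, 342 to 3173, 26 to 538, 315 to 1371 and 30 to 298 in the same order. The list itself depended on its scoring, as 22 of the 40 rows were shared with a pseudocount of 1 CPM and 19 with the mean over libraries in place of pooled sums. It shared 30 rows without cells of high UMI count, and 27 (without P4) to 38 with a library left out. Of the checks of named rows, 97 kept their direction and call and 5 lost the call in other settings, 180 kept and 44 lost it with a library left out, and 0 reversed. A minimum of 30 cells gave another set of libraries for precursors only. Causes of these shifts were not tested. Postnatal sums of few UMIs limit the low rows, of which 8 were not tested for stage in neurogenic progenitors.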
